A study of Homo sapiens with 6 samples.

Results

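The SLC25 family is the group of mitochondrial carriers, the transporters that move small molecules across the mitochondrial inner membrane. Its members were taken as every gene of the count table whose symbol begins with SLC25, which gave 48 of 19330 genes. Of these, 31 passed the filter on low counts and were tested for a difference between conditions, among 8324 genes tested in all. The remaining 17 comprised 8 genes with no count in any library and 9 genes with counts too low to test. Members were grouped by the substrate each is known to carry, namely nucleotides, phosphate, iron, amino acids, di- and tricarboxylates, cofactors and redox molecules, and carnitine, with separate groups for relatives of the uncoupling proteins and for members of unassigned substrate.

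The inner membrane is closed to most polar metabolites, so that substrates and products of oxidative phosphorylation, the citric acid cycle and the synthesis of heme pass through carriers. A carrier is encoded by a nuclear gene, made in the cytosol and inserted into the inner membrane by the TIM22 complex. Most carriers share a fold of repeated membrane-spanning helices and exchange one solute for another, while others import together with a proton. In erythroid cells the import of iron and glycine feeds heme synthesis, and K562, an established human chronic myelogenous leukemia line, keeps an erythroid character with fetal and embryonic globins.

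K562 cells carried pLentiCRISPRv2, a lentiviral vector for Cas9 and a guide, with sgRNAs against control genes (sgCtrl, olfactory receptor genes) or against N6AMT1 (sgN6AMT1), a methyltransferase that modifies the translation release factor eRF1. Both conditions underwent 48 h of puromycin selection and were collected 10 days after infection, and RNA-Seq was performed on 3 libraries of each, each from its own transduction. The labels do not say which guide a given library received, and the cells are a selected population rather than a described clone. RNA came from detergent lysates cleared by centrifugation, and the labels name both polyA RNA and a total RNA kit with rRNA depletion. The question asked of the carriers was which of them K562 cells express, and whether their transcripts differed after depletion of N6AMT1.

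Total counts ran from 742470 to 866894 in sgCtrl and from 959319 to 5526904 in sgN6AMT1, so sgN6AMT1 replicates 2 and 3 were the deepest, and the part of depth in the differences below was not tested. N6AMT1 itself received 6, 5 and 9 counts in the sgCtrl libraries, by replicate number, and 0, 18 and 16 counts in sgN6AMT1, which is 5.77 to 10.4 cpm (a count scaled to the total of its library) in sgCtrl and up to 3.94 cpm in sgN6AMT1. The 0 allows up to 3.13 cpm (3 counts). The order of the libraries thus followed the labels, although a guide alters the gene and need not remove its transcript. All 10 erythroid markers examined were tested, and their summed level was 11630 to 18910 cpm in sgCtrl and 19040 to 35640 cpm in sgN6AMT1. The sum is mostly globin. The log2 fold changes of the list were 5 positive and 5 negative, with a median of 0.0048. HBG1, HBG2 and HBE1 were called higher in sgN6AMT1 and LMO2 lower, where 5.09% and 4.76% of all genes tested were, but HBG1 and HBG2 overlapped between the conditions and missed the threshold with DESeq2 (adjusted p = 0.121 and 0.120). Their part was likewise not tested. Of markers of T cells, B cells, epithelium and fibroblasts, CD2, MS4A1, PAX5 and KRT5 were at 0 in all 6 libraries, while EPCAM (155 cpm in sgCtrl), CD3D (15.6 cpm) and COL1A2 (15.2 cpm) were detected.

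The most abundant carriers include close copies of each other, so that the sequences which separate them bear on every value that follows. The ADP/ATP carriers export ATP from the matrix in exchange for ADP and carry an arginine-methionine run that marks this group. The windows of 60 bases around that run are shown 5′ to 3′ from the canonical transcripts of GENCODE v44 (GRCh38), with the 18 bases that encode the run in capitals.
SLC25A4: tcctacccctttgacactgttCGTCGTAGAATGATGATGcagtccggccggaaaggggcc
SLC25A5: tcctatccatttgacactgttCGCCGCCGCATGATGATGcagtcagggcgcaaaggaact
SLC25A6: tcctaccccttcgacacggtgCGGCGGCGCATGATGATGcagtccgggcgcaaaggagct
SLC25A4 lies on chromosome 4 from 185143266 to 185150382 on the plus strand, SLC25A5 on chromosome X from 119468422 to 119471396 on the plus strand, and SLC25A6 on chromosome X from 1386152 to 1392113 on the minus strand. The run starts at base 703 of 897 coding bases in all 3 genes. Even in this conserved stretch, SLC25A4 and SLC25A5 differed at 12 of 60 bases, SLC25A4 and SLC25A6 at 11, and SLC25A5 and SLC25A6 at 9. Over the whole coding sequence the identity was 77.3%, 77.9% and 78.8% for the same pairs, and the longest identical run was 29 bases, between SLC25A5 and SLC25A6. No stretch of 60 coding bases was therefore common to a pair of these genes.

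Other members share more sequence with genes outside or inside the family. Of the 60-base windows of the canonical transcript, 61.8% occurred also in another annotated gene for SLC25A10 and 87.9% for SLC25A32. In both cases the gene sharing most was an overlapping protein-coding gene on the same strand. SLC25A51, the NAD carrier, and its copy SLC25A52 shared 301 windows, and 35.3% of the windows of SLC25A51 and 24.4% of those of SLC25A52 were not unique. SLC25A33 had 17.7% of its windows in other genes, with most of them in a single gene. How reads on such stretches were assigned was not given in the sources used here, so the counts of these members are uncertain. SLC25A21 shares 1442 of its 4757 exon bases with PAX9 on the opposite strand, and SLC25A24 and SLC25A25 overlap antisense transcripts there too. These overlaps are those of GENCODE v44, a later annotation than that of the counts. The library kit keeps strand, but whether the counting used it was not given in the sources used here, so it is unknown whether reads of such pairs were separated.

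K562 cells expressed 34 of the 48 carriers, taking as expressed a level of at least 1 TMM-normalized cpm per kb of canonical transcript (cpm/kb) in each sgCtrl library. Levels of expressed carriers ran from 1.94 cpm/kb for SLC25A16 to 312 cpm/kb for SLC25A5, a 161-fold range, with a median of 14.3 cpm/kb. The 6 highest, SLC25A5, SLC25A6, SLC25A1, SLC25A39, SLC25A3 and SLC25A13, held 69.5% of the summed cpm/kb of the family. These are carriers of ADP and ATP, citrate, glutathione, phosphate, and aspartate with glutamate. All reads on the family amounted to between 0.278% and 0.374% of the counts of a library.

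SLC25A5, the ADP/ATP carrier of growing cells, stood highest at 312 ± 25.3 cpm/kb (SD, n = 3 sgCtrl libraries). SLC25A6, a further ADP/ATP carrier, followed at 167 ± 29.9 cpm/kb. SLC25A1, which exports citrate for lipid synthesis, was at 126 ± 24.9 cpm/kb, and SLC25A39, the importer of glutathione, at 124 ± 18.6 cpm/kb. SLC25A3, the carrier of phosphate and copper, was at 109 ± 9.60 cpm/kb. These last 3 levels lay within their spread of each other, so their order is not resolved, and the lowest library of SLC25A6 lay below the highest of SLC25A1. SLC25A13, known as citrin, was lower at 47.4 ± 7.64 cpm/kb and apart from all higher carriers. The place of SLC25A3 depended on its length, since the canonical transcript of 5984 bases is far longer than the median of 1364 bases over its protein-coding transcripts. Per kb of the latter it reached 479 cpm/kb, above SLC25A5. On that length SLC25A39 rose above SLC25A6 and SLC25A1, to 234.3 cpm/kb, and SLC25A38 stood at 65.7 cpm/kb, above SLC25A13 at 47.0, so that the 6 highest carriers then held SLC25A38 in place of SLC25A13.

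**Figure D1:**
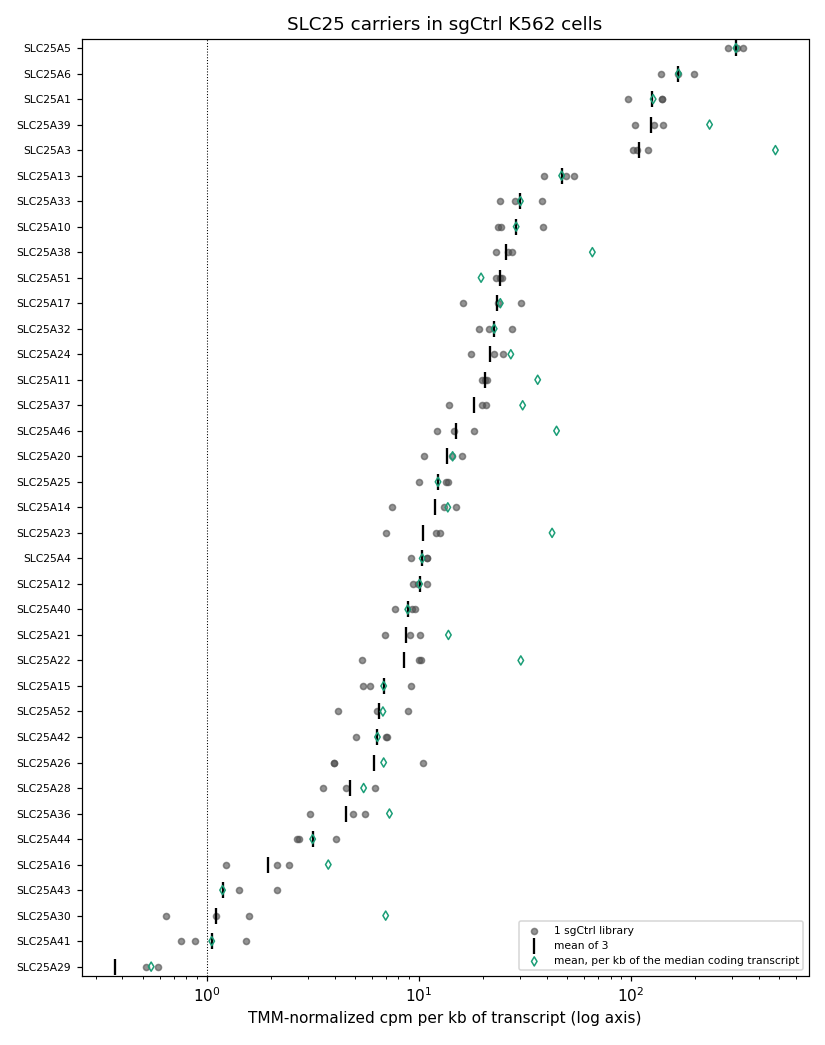
Level of carriers with at least 1 count in sgCtrl (all but 1 of them drawn), as TMM-normalized cpm per kb of transcript on a log axis, with grey points for the 3 sgCtrl libraries, black bars for their mean and diamonds for the mean per kb of the median protein-coding transcript. A library at 0 cannot be drawn on the log axis, the dotted line is the threshold of 1 cpm/kb, and levels reach from under 1 for SLC25A29 to 312 cpm/kb for SLC25A5, with SLC25A3 at 479 when the shorter length is used.

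Below citrin the levels formed a continuous series in which neighbours overlapped. It began with SLC25A33 (pyrimidine nucleotides) at 30.1 cpm/kb, SLC25A10 (dicarboxylates) at 28.7 and SLC25A38 (glycine) at 25.6. SLC25A51 (NAD) at 24.0, SLC25A17 (a carrier of the peroxisome) at 23.3 and SLC25A32 (folate and FAD) at 22.6 cpm/kb came next. SLC25A24 (ATP-Mg for phosphate), SLC25A11 (oxoglutarate for malate) and SLC25A37 (iron) lay between 21.7 and 18.1 cpm/kb. Among the classes, all 10 members of the cofactor and redox class and all 4 di- and tricarboxylate carriers were expressed, against 8 of 10 nucleotide carriers, 6 of 9 amino acid carriers, 1 of 3 relatives of the uncoupling proteins and 1 of 8 members of unassigned substrate.

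The 14 carriers under the threshold included some known from other tissues. SLC25A31, the ADP/ATP carrier of the testis, SLC25A2 and SLC25A18, the second copies of the ornithine and glutamate carriers, and SLC25A27, a brain uncoupling relative, had no counts in any library. SLC25A35, SLC25A47, SLC25A48 and SLC25A53 likewise had none. A count of 0 allows up to 3 counts, or 0.543 to 4.04 cpm depending on the library, so these are carriers not detected at this depth. SLC25A29, SLC25A30, SLC25A34, SLC25A41, SLC25A43 and SLC25A45 received 0 to 5 counts in single sgCtrl libraries. SLC25A28, SLC25A44 and SLC25A52 were expressed by the threshold but had too few counts to be tested.

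Where a class has several carriers of the same substrate, most counts fell on 1 of them. These shares are of raw counts without adjustment for transcript length, so they are not shares of transcripts. SLC25A5 held 56.3%, 64.7% and 55.1% of the counts on the expressed ADP/ATP carriers in sgCtrl by replicate number, and 55.6%, 60.1% and 53.6% of them in sgN6AMT1. The means were 58.7 ± 5.24% and 56.5 ± 3.33% (SD, n = 3 each), a difference smaller than the spread between libraries. SLC25A6 held 34.8 ± 4.77% and 36.3 ± 3.02%. SLC25A4, the ADP/ATP carrier of heart and muscle, held 6.57 ± 0.677% and 7.27 ± 0.681%. Its canonical transcript has 4415 bases against 1307 for SLC25A5, and per kb it stood at 10.35 cpm/kb in sgCtrl, against 312 for SLC25A5. The single-library 95% Wilson interval of the share of SLC25A5 was widest in sgCtrl replicate 1, from 51.9% to 60.6%, and covers counting error only.

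**Figure D2:**
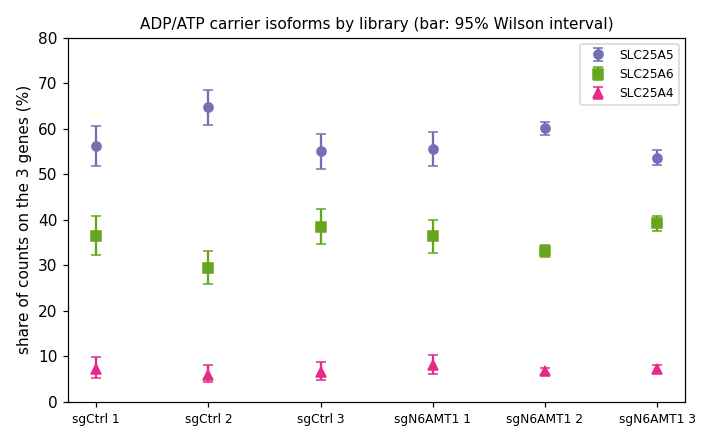
Share of the counts on SLC25A4, SLC25A5 and SLC25A6 that fell on each gene, in percent, for each of the 6 libraries, with bars for the 95% Wilson interval. SLC25A5 lies between 53.6% and 64.7% and SLC25A4 between 5.94% and 8.01%, with no order change between the conditions.

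Among aspartate/glutamate carriers, SLC25A13 held 78.8 ± 3.14% of the counts in sgCtrl and 78.3 ± 2.84% in sgN6AMT1, with the rest on SLC25A12, known as aralar. Among the mitoferrins, which import iron, SLC25A37 (mitoferrin-1, the erythroid form) held 91.7 ± 3.89% and 90.5 ± 1.36%, with the rest on SLC25A28 (mitoferrin-2). Their canonical transcripts have 4672 and 1526 bases, and per kb the sgCtrl means were closer, at 18.1 and 4.75 cpm/kb. SLC25A51 held 77.4 ± 6.32% and 78.4 ± 5.64% of the counts on it and SLC25A52, a pair whose reads cannot be fully separated. None of these shares moved by more than the spread between libraries.

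Between the conditions, 1 of the 31 tested carriers was called, SLC25A10, which rose in sgN6AMT1 (edgeR's quasi-likelihood test at a threshold of 0.05 on the p adjusted over the whole table by Benjamini-Hochberg). In bulk RNA a change in the share of cells that express a gene cannot be told apart from a change per cell. The call is 3.23% of the tested carriers, where 9.85% of all genes tested were called, 5.09% higher and 4.76% lower. The log2 fold changes (sgN6AMT1 against sgCtrl) were positive for 21 carriers and negative for 10, with a median of 0.13, against 0.0087 over all genes tested. They reached from -0.67 for SLC25A40 to 0.69 for SLC25A10, with standard errors of 0.15 to 0.41. An unadjusted p under 0.05 was found for 6 carriers (5 of them higher), or 19.4%, against 26.2% of all genes. In 7 carriers (SLC25A3, SLC25A4, SLC25A10, SLC25A11, SLC25A16, SLC25A38 and SLC25A39) every sgN6AMT1 library lay above every sgCtrl library, which is 22.6%, against 15.1% of all genes, and in 0 carriers every sgN6AMT1 library lay below, against 14.1%. For SLC25A16 the gap was narrow, with 16.4 cpm in sgN6AMT1 replicate 2 against 16.1 cpm in sgCtrl replicate 1. Its sgCtrl libraries held only 12, 7 and 12 counts, given here after the values were seen. DESeq2 called 0 carriers. The summed level of the family was 2951, 2778 and 3165 cpm in sgCtrl (replicates 1 to 3) and 3219, 3400 and 3908 cpm in sgN6AMT1. The sum was thus higher in each sgN6AMT1 library than in any sgCtrl library, with SLC25A3 and the ADP/ATP carriers making up much of it.

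**Figure D3:**
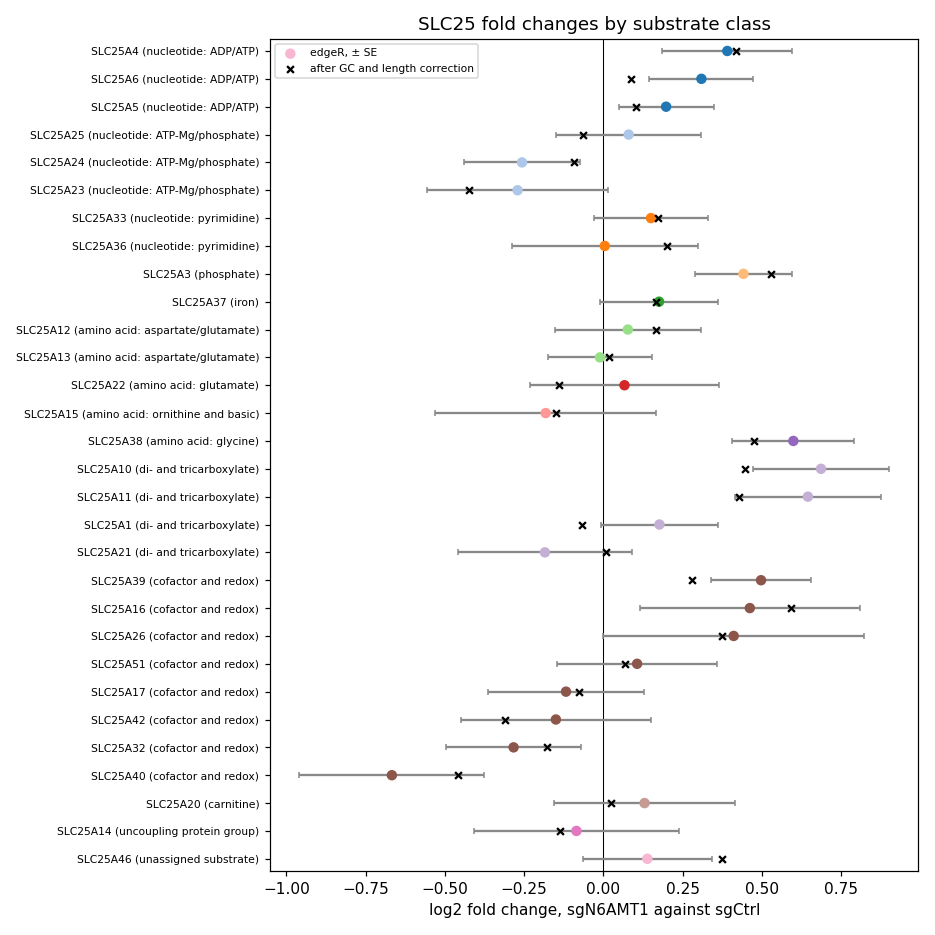
Log2 fold change, sgN6AMT1 against sgCtrl, of the tested carriers by substrate class (all but 1 of the 31 drawn), with filled circles for the edgeR fit, bars for its standard error and crosses for the value after correction for GC content and length. Over all 31, positive values outnumber negative ones 21 to 10, and values reach from -0.67 for SLC25A40 to 0.69 for SLC25A10.

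Nucleotide carriers were led by the ADP/ATP group, and none of the 8 tested was called. SLC25A5 measured 373.6, 439.6 and 410.3 cpm in sgCtrl (replicates 1 to 3) and 395.2, 531.1 and 471.5 cpm in sgN6AMT1. The conditions overlapped, and the log2 fold change was 0.20 (SE 0.15, edgeR adjusted p = 0.432). SLC25A6 measured 241.9, 199.6 and 286.5 cpm in sgCtrl and 258.2, 293.5 and 345.3 cpm in sgN6AMT1. Here sgN6AMT1 replicate 1 lay below sgCtrl replicate 3, and the log2 fold change was 0.31 (SE 0.16, edgeR adjusted p = 0.240). SLC25A4 was the nucleotide carrier without overlap, with 45.7 ± 4.60 cpm in sgCtrl and 59.5 ± 2.95 cpm in sgN6AMT1 (SD, n = 3 each) and a log2 fold change of 0.39 (SE 0.21, edgeR adjusted p = 0.237).

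The ATP-Mg/phosphate carriers, which adjust the adenine nucleotide pool of the matrix in response to calcium, had values of -0.27 (SLC25A23), -0.26 (SLC25A24) and 0.08 (SLC25A25). The pyrimidine nucleotide carriers SLC25A33 and SLC25A36 had 0.15 and 0.0041. Their standard errors were 0.18 to 0.29, so none of these values stood apart from 0. The 10 nucleotide carriers together summed to 963 to 1099 cpm in sgCtrl and 1007 to 1217 cpm in sgN6AMT1, which overlap.

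Phosphate enters the matrix through SLC25A3, which supplies ATP synthase and also carries copper for cytochrome c oxidase. It lies on chromosome 12 from 98593591 to 98606379. SLC25A3 measured 634.3, 608.0 and 718.0 cpm in sgCtrl (replicates 1 to 3) and 821.9, 806.4 and 1032 cpm in sgN6AMT1. All 3 sgN6AMT1 values lay above the sgCtrl values, as for 15.1% of all genes, and the means were 653 ± 57.4 and 887 ± 126 cpm (SD, n = 3 each). The log2 fold change of 0.44 (SE 0.15) missed the threshold with an edgeR adjusted p of 0.0734. After correction of each library for GC content and transcript length it was 0.53 with an adjusted p of 0.0208, and SLC25A3 was then the called carrier in place of SLC25A10.

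In the iron class most counts fell on SLC25A37, which measured 96.8, 92.3 and 64.8 cpm in sgCtrl (replicates 1 to 3) and 94.8, 100.2 and 90.8 cpm in sgN6AMT1. The conditions overlapped, with sgCtrl replicate 3 lowest, and the log2 fold change was 0.18 (SE 0.19, edgeR adjusted p = 0.596). SLC25A28, too low to be tested, received 4, 6 and 8 counts in sgCtrl and 11, 49 and 36 counts in sgN6AMT1, which is 5.38 to 9.43 and 8.94 to 11.6 cpm. The iron class thus gave overlapping values in both members.

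**Figure D4:**
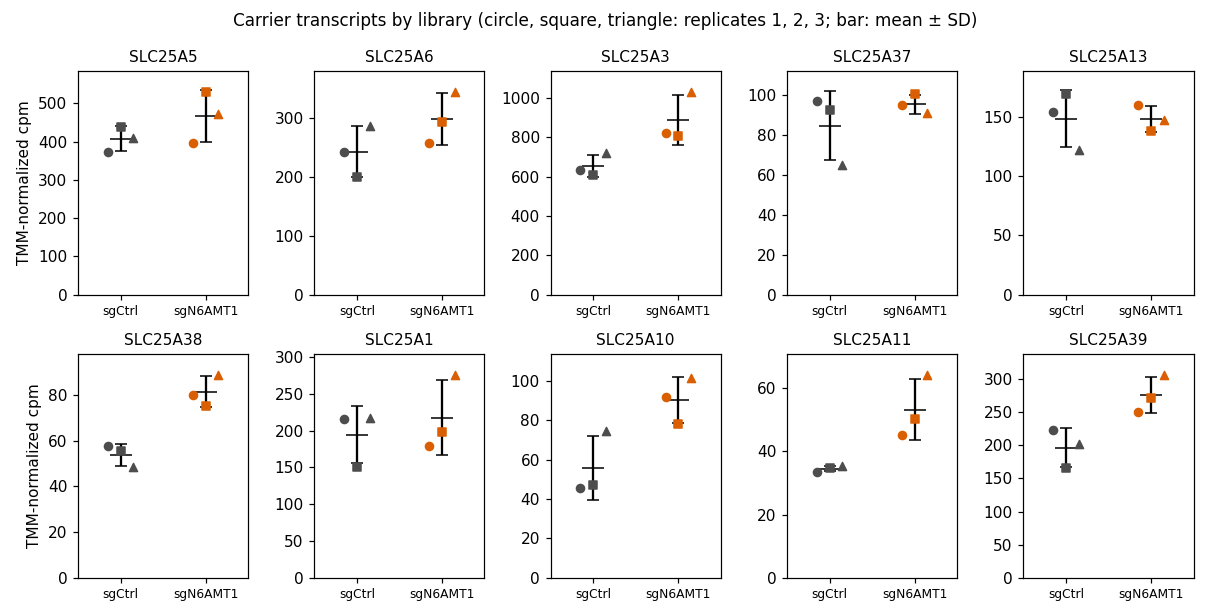
TMM-normalized cpm of 10 carriers in each library, with circles, squares and triangles for replicates 1, 2 and 3 and bars for the mean and SD of each condition; every vertical axis starts at 0. The conditions do not overlap for SLC25A3, SLC25A38, SLC25A10, SLC25A11 and SLC25A39, and they overlap for SLC25A5, SLC25A6, SLC25A37, SLC25A13 and SLC25A1.

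Of the amino acid carriers, 5 were tested and none was called. SLC25A13, which exchanges aspartate for glutamate in the malate-aspartate shuttle, measured 154.5, 169.6 and 122.6 cpm in sgCtrl and 160.2, 138.2 and 147.6 cpm in sgN6AMT1. Its log2 fold change of -0.01 (SE 0.16, edgeR adjusted p = 0.974) left the means of the conditions within their spread. SLC25A12, SLC25A22 (glutamate) and SLC25A15 (ornithine) had values of 0.08, 0.07 and -0.18, with standard errors of 0.23 to 0.35. The outlying value of the class was that of SLC25A38, whose glycine feeds the first step of heme synthesis.

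SLC25A38 is given by library because of its value, as a choice made after the values were seen. It measured 57.8, 55.4 and 48.3 cpm in sgCtrl and 80.1, 75.4 and 88.7 cpm in sgN6AMT1. The conditions did not overlap, and the log2 fold change of 0.60 (SE 0.19) had an edgeR adjusted p of 0.0547 and did not pass. The corrected value was 0.48 (adjusted p = 0.0932). Of the iron carriers, SLC25A37 had a value of 0.18 and SLC25A28 was not tested. The glutathione carriers SLC25A39 and SLC25A40 had 0.50 and -0.67, or 0.28 and -0.46 after correction. A joint change of these carriers with SLC25A38 was not tested.

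The di- and tricarboxylate carriers connect the citric acid cycle with the cytosol. SLC25A10, which exchanges malate and succinate for phosphate, lies on chromosome 17 from 81712236 to 81721016. It measured 45.7, 47.3 and 74.3 cpm in sgCtrl (replicates 1 to 3) and 91.7, 77.9 and 101.3 cpm in sgN6AMT1. The lowest sgN6AMT1 library lay just above sgCtrl replicate 3, which stood apart from the other sgCtrl libraries. The means were 55.8 ± 16.1 and 90.3 ± 11.7 cpm (SD, n = 3 each). The edgeR fit gave a 1.61-fold difference, a log2 fold change of 0.69 (SE 0.21, edgeR adjusted p = 0.049). This call was close to the threshold. With DESeq2 the adjusted p was 0.0877, and after correction for GC content and length the log2 fold change was 0.45 (adjusted p = 0.174). Of the 6 fits without 1 library, only that without sgCtrl replicate 3 kept the call, with a log2 fold change of 0.95 (adjusted p = 0.0234).

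SLC25A11, the oxoglutarate/malate carrier of the malate-aspartate shuttle, was chosen after its values were seen. It measured 33.6, 34.6 and 35.4 cpm in sgCtrl and 45.3, 50.2 and 64.0 cpm in sgN6AMT1. The sgCtrl libraries were close to each other and all sgN6AMT1 libraries lay above them, with a log2 fold change of 0.64 (SE 0.23, edgeR adjusted p = 0.0797). SLC25A1, the most abundant carrier of the class, measured 216.3, 150.0 and 216.9 cpm in sgCtrl and 179.1, 198.4 and 275.1 cpm in sgN6AMT1. These overlapped, with a log2 fold change of 0.18 (SE 0.18, edgeR adjusted p = 0.592), which was -0.07 after correction. SLC25A21, the oxoadipate carrier, had -0.18. The median of the 4 was 0.41, and 0.22 after correction. Other classes with more than 3 tested members had medians of 0.11 (nucleotides), 0.07 (amino acids) and 0.11 (cofactor and redox). The phosphate class, with 1 tested member, had 0.44. The summed level of the di- and tricarboxylate class, 271.1 to 361.9 cpm in sgCtrl and 349.9 to 471.2 cpm in sgN6AMT1, overlapped.

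In the cofactor and redox class, SLC25A39 and SLC25A40 are the related carriers of glutathione, the main soluble thiol of the matrix. SLC25A39 measured 223.1, 165.0 and 201.6 cpm in sgCtrl and 250.8, 271.2 and 305.7 cpm in sgN6AMT1. The conditions did not overlap, and the log2 fold change of 0.50 (SE 0.16) lay just outside the threshold with an edgeR adjusted p of 0.05001. After correction for GC content and length it was 0.28 (adjusted p = 0.167). SLC25A40, chosen after its values were seen as the lowest of the family, measured 37.6, 31.1 and 38.9 cpm in sgCtrl and 33.7, 22.4 and 16.5 cpm in sgN6AMT1. The conditions overlapped, with a log2 fold change of -0.67 (SE 0.29, edgeR adjusted p = 0.151). The pair therefore had values of opposite sign, and a difference between them was not tested.

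Further members of this class had log2 fold changes of 0.46 (SLC25A16), 0.41 (SLC25A26, S-adenosylmethionine), 0.11 (SLC25A51), -0.12 (SLC25A17), -0.15 (SLC25A42, coenzyme A) and -0.28 (SLC25A32). Their standard errors were 0.21 to 0.41, and none had an unadjusted p under 0.05. SLC25A20, which brings acylcarnitines in for fatty acid oxidation, had 0.13, SLC25A14, a relative of the uncoupling proteins, -0.09, and SLC25A46, a member found at the outer membrane, 0.14. These last 3 were also not called.

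Fold changes of the carriers went with the GC content of their transcripts. Over the 31 tested carriers, Spearman's rho of the GC content of the canonical transcript and the log2 fold change was 0.45, as a description over genes that share the same 6 libraries. It was 0.04 after each library had been corrected for GC content and length. That correction removes a GC trend over all genes by construction, so the low value is no separate result. Of the 14 carriers at or above the median GC content of tested nuclear genes (47.1%), 12 had positive values, with a median of 0.19, or 0.09 after correction. Of the 17 below it, 9 did, with a median of 0.0041, or 0.07 after correction. All tested nuclear genes showed the same ordering, with medians of 0.12 and -0.09. After correction the median of the 31 carriers was 0.09 and 20 were positive. SLC25A10, SLC25A39 and SLC25A11 had GC contents of 65.3%, 61.5% and 58.5%, among the higher ones, while SLC25A40 had the lowest, 34.3%. Others of high GC content had small or negative log2 fold changes, as SLC25A1 (64.5%, 0.18), SLC25A22 (63.8%, 0.07), SLC25A42 (59.5%, -0.15) and SLC25A23 (58.7%, -0.27), and SLC25A3 had 0.44 at 43.5%.

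**Figure D5:**
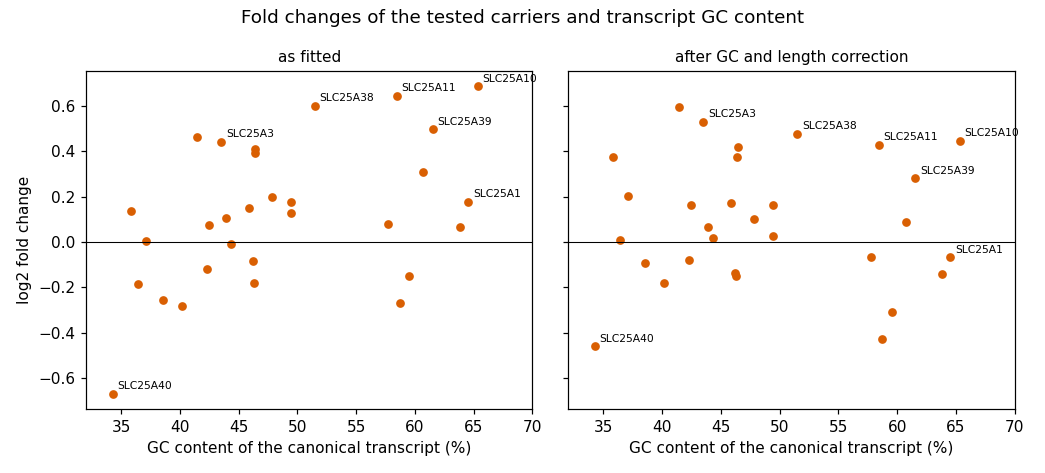
Log2 fold change (sgN6AMT1 against sgCtrl) of the tested carriers (all but 1 of the 31 drawn) against the GC content of the canonical transcript in percent, as fitted and after correction for GC content and length. Spearman's rho over all 31 carriers is 0.45 as fitted and 0.04 after correction, which removes a GC trend over all genes by construction.

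Other transporters of the organelle were read beside the carriers. Of 29 other inner-membrane transport genes in the table, 20 were tested and 0 were called by edgeR, with 14 positive and 6 negative values, a median log2 fold change of 0.04 and 2 genes with an unadjusted p under 0.05. DESeq2 also called 0. The highest of them by level, GHITM and MTCH2, had values of 0.0066 and -0.0014. MTCH2 was kept in this list although it is a protein of the outer membrane. In the short list of outer-membrane genes, 2 of 4 were called higher by edgeR and 1, VDAC2, by DESeq2, where edgeR called 5.09% of all genes tested higher. This list was not tested against the inner-membrane genes. VDAC2, a channel for metabolites across the outer membrane, measured 434.0, 452.2 and 557.6 cpm in sgCtrl and 722.9, 703.4 and 848.9 cpm in sgN6AMT1. It rose from 481 ± 66.7 to 758 ± 79.0 cpm (SD, n = 3 each), with a log2 fold change of 0.66 (SE 0.15, edgeR adjusted p = 0.0129) without overlap of the conditions. The call was lost without sgCtrl replicate 1 (0.58, edgeR adjusted p = 0.0685) or sgCtrl replicate 2 (0.60, edgeR adjusted p = 0.0985). TSPO, a cholesterol- and porphyrin-binding protein, rose from 8.06, 9.23 and 23.6 cpm in sgCtrl to 23.2, 27.2 and 52.7 cpm in sgN6AMT1. The sgCtrl values rest on only 6, 8 and 20 counts. The log2 fold change of TSPO was 1.37 (SE 0.40, edgeR adjusted p = 0.0377), with sgCtrl replicate 3 level with sgN6AMT1 replicate 1. TSPO was not called with DESeq2 (adjusted p = 0.0532), after correction for GC content and length (1.06, adjusted p = 0.0692), or without sgCtrl replicate 1 (1.12, adjusted p = 0.153), sgCtrl replicate 2 (1.13, adjusted p = 0.188) or sgN6AMT1 replicate 3 (0.90, adjusted p = 0.168). Without sgCtrl replicate 3 its log2 fold change was 2.03. VDAC1 had 0.0019 and VDAC3 -0.07.

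The route by which carriers reach the inner membrane was read last. All 10 genes of this route were tested, among them the receptor TOM70, the small TIM chaperones and TIM22, with 6 positive and 4 negative values and a median log2 fold change of 0.11. By edgeR 0 were called, with 1 gene at an unadjusted p under 0.05, and DESeq2 also called 0. That gene was TIMM10, a small TIM chaperone, named after its values were seen, with 56.4, 34.6 and 38.9 cpm in sgCtrl and 24.2, 24.3 and 27.8 cpm in sgN6AMT1. All sgN6AMT1 values lay below those of sgCtrl, and the log2 fold change was -0.75 (SE 0.26, edgeR adjusted p = 0.0688), with an adjusted p of 0.0216 after correction for GC content and length.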

How the data were processed

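K562 RNA-Seq was analysed in 3 sgCtrl and 3 sgN6AMT1 libraries, grouped by their labels. The authors trimmed reads with cutadapt and mapped them with HISAT2 to GRCh38, and they deposited raw counts per gene symbol without normalization. Strand and multimapping settings of the counting were not given in the sources used here. Of 19330 symbols, 18855 matched GENCODE v44 (871 through an older symbol), which gave positions, lengths and GC content. Counts were filtered with filterByExpr, scaled with TMM factors and compared by the quasi-likelihood test of edgeR 4.0.16 (glmQLFit, glmQLFTest; R 4.3.3, two-sided, no covariates), with Benjamini-Hochberg adjustment over 8324 genes. The common biological coefficient of variation was 0.16. DESeq2 1.42.0 was an alternative. Tables were summarised in Python 3.11.15.

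The family, its substrate classes and the other lists were chosen with earlier results of these data known. Values in every library are given for called members, the 6 highest by cpm/kb in sgCtrl, all tested phosphate and iron carriers and the highest tested nucleotide, amino acid and di- or tricarboxylate carrier. Other members are given by fold change. Of other lists, called genes and up to 3 of the highest by level are named. Genes given by library outside this rule are said to be so. The values of 1 member are not reported here by name, and the counts and medians include it. UCP1, UCP2 and UCP3, uncoupling proteins whose symbols do not begin with SLC25, were read with the other inner-membrane transport genes. Alternatives were other size factors, other filters and thresholds, normalization without mt-DNA-encoded genes, a correction for GC content and length (loess, span 0.5; 98.1% of tested genes), a replicate block, other lengths, and each library left out. Differences between libraries of a condition exceeded counting noise. The p-values set the difference between conditions against the spread between the 3 libraries of each, with an estimate of spread that draws on all tested genes.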

Additional observations from a re-analysis of the deposited data

How the results depend on the processing

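The count of called carriers, 1 by edgeR and all of it in the higher direction, depended on the fit. Called and called higher alike, it was 0 at an adjusted p under 0.01, with RLE size factors, with library totals and with DESeq2, 2 without a filter on low counts (where the median log2 fold change of all genes rose to 0.12), 3 with at least 10 counts in every library and 4 with the replicate block. It ran from 0 to 1 with single libraries left out. Carriers called lower stayed at 0 throughout. After GC and length correction it was 1, SLC25A3 in place of SLC25A10. SLC25A10 was called in 5 of 15 other fits, with log2 fold changes of 0.45 to 0.95 and adjusted p of 0.0196 to 0.224. SLC25A39 was called in 4, SLC25A3 in 3 and SLC25A38 in 2, and SLC25A4, SLC25A11 and SLC25A40 in 0. The share of all genes called in each of these other fits is not given here, so the carrier counts cannot be set against it.

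The count over other inner- and outer-membrane transport genes, 2, was 0 at an adjusted p under 0.01 and 1 with at least 10 counts, with DESeq2 or with the GC and length correction, 3 without a filter and with the replicate block (with or without the correction), and ran from 0 to 3 with single libraries left out (0 without sgCtrl replicate 1 or 2). For carrier import, 0, it was 1 with the correction, with or without the block. The cause was not tested, and the shares over all genes in these fits are likewise not given. Expressed carriers, 34, numbered 33 to 35 under other lengths, floors and left-out libraries.

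Whether replicate numbers pair the libraries was not settled. Deviations of same-numbered libraries correlated at -0.000522, 0.0827 and 0.190 for replicates 1, 2 and 3. The value of replicate 3 was the highest of all pairs, and sgN6AMT1 replicate 2 also correlated best with its own number. In contrast, sgN6AMT1 replicate 1 correlated best with sgCtrl replicate 2 (0.140). With 3 libraries per condition such correlations cannot show whether a pairing exists. The replicate block moved the called carriers from 1 to 4, without a share over all genes to set beside it.

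Of 461 alternative fold changes of single carriers, 32, in 11 genes, changed sign, and none of these passed the threshold. SLC25A36 was -0.0087 with RLE, -0.013 with totals, -0.0008 without mt-DNA-encoded genes, -0.0032 with DESeq2 and -0.0012 with the block. SLC25A13 was 0.015 with at least 10 counts. With the GC and length correction SLC25A1, SLC25A13, SLC25A21, SLC25A22 and SLC25A25 were -0.0673, 0.0171, 0.0085, -0.1406 and -0.0642, and with the replicate block added SLC25A1, SLC25A13, SLC25A22 and SLC25A25 were -0.0587, 0.0263, -0.093 and -0.0592. With single libraries left out, ranges were -0.0280 to 0.2822 for SLC25A1, -0.0711 to 0.1660 for SLC25A12, -0.1374 to 0.0876 for SLC25A13, -0.3172 to 0.1073 for SLC25A14, -0.3628 to 0.0709 for SLC25A15, -0.3427 to 0.1213 for SLC25A17, -0.0444 to 0.2449 for SLC25A20, -0.3361 to 0.0263 for SLC25A21, -0.1875 to 0.2037 for SLC25A22, -0.0589 to 0.1509 for SLC25A25 and -0.2018 to 0.1811 for SLC25A36. The family's median was 0.04 without sgN6AMT1 replicate 3 and 0.09 to 0.16 in the other fits.

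The sgCtrl libraries limit precision, since a carrier at 3 counts there sits at about the level that a count of 0 allows. Length per kb was tried with the median protein-coding transcript after seeing the data.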
